A study of Mus musculus with 2 samples.

Results

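Collagens are the triple-helical proteins that give tissues their tensile strength and that build the sheets on which epithelia and blood vessels rest. Each collagen molecule is a trimer of chains, which come from the same gene or from different genes. The collagen chain genes described here were all 44 genes, of 32285 in the count tables, whose symbol consists of Col, a type number, the letter a and a chain number. Their transcripts were followed in fibroblast-like, endothelial-like, tumor-like and macrophage-like cells of subcutaneous MC38 tumors, grown from a mouse colon cancer cell line in female C57BL/6 mice that were 6 to 8 weeks old at inoculation. The hosts were either wild-type (Lmo7+/+) or carried a genomic knockout of Lmo7 (Lmo7-/-), a gene for an actin-associated LIM domain protein, so that every host cell lacked the gene in the second group while the implanted MC38 cells were the same in both. Live cells were sorted after enzymatic dissociation and lysis of red blood cells, and 1 droplet library of unique molecular identifier (UMI) counts represented each genotype. The number of mice behind each library is not given in the sources used here, and no treatment was applied to either group.

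In tumors, fibroblasts are known as the main makers of the fibril-forming collagens of type I, III and V, endothelial and mural cells lay down the type IV network of the vessel basement membrane, and tumor cells add chains of their own. Chains are hydroxylated, glycosylated and folded in the endoplasmic reticulum, trimmed by propeptidases outside the cell, crosslinked, and later degraded by matrix metalloproteinases, cathepsins and uptake by macrophages. Of the 44 genes, 11 encode fibrillar chains, 6 chains of basement membranes, 6 chains of the beaded filaments of type VI, 4 chains of hexagonal networks and anchoring fibrils, 9 fibril-associated chains, 2 multiplexins, 4 transmembrane chains and 2 other chains.

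After filtering, 13542 cells of the Lmo7+/+ library and 11860 cells of the Lmo7-/- library remained of 16208 and 15163 deposited barcodes, with medians of 4535.5 and 4304.5 UMIs per cell. The libraries shared 279 barcodes, of which 175 were kept in both and 71 of these fell in the same class. Cells were clustered without the collagen chain genes and named from marker lists, which gave 86 and 75 fibroblast-like, 78 and 61 endothelial-like, 6364 and 4830 tumor-like and 3899 and 4384 macrophage-like cells. Of the markers, 14 of 15 for fibroblasts (Tcf21 was at 0), 12 of 12 for endothelial cells and 12 of 12 for macrophages reached 5 CPM (counts scaled to 1000000 UMIs) in their own class. The tumor-like class rested on a chromosome-wide expression profile apart from that of the host cells and on little Ptprc, since only 6 of the 19 tumor markers reached that level, and the fibroblast markers summed to 1307 CPM there against 435 for the tumor markers. Lmo7 itself was read at 19.3 and 15.2 CPM in tumor-like cells, and its 18 and 11 counts in endothelial-like cells of the Lmo7+/+ and Lmo7-/- libraries show that the knockout library was not at 0. Whether the counted stretch of the gene lies inside the deleted part is not given, so these counts check no label.

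Levels are given in CPM, the counts of a gene over all UMIs of a cell class in a library, and paired values list the Lmo7+/+ library first. Ratios are log2 ratios of the Lmo7-/- over the Lmo7+/+ library. Since each genotype had 1 library and cells are not replicates, no p-value was computed, and the 95% intervals cover counting error only. A gene was called higher or lower at a fold of 2 or more, among genes that had 20 or more counts in that class, both libraries together.

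Collagen chain transcripts were most abundant in fibroblast-like cells. Summed over the 44 genes they reached 93483 and 94905 CPM in fibroblast-like cells, 8871 and 10998 CPM in endothelial-like cells, 4498 and 4005 CPM in tumor-like cells and 219 and 153 CPM in macrophage-like cells. T-like cells, which are not known to make collagen, were taken as the background and held 610 and 429 CPM. The sum in macrophage-like cells lay below that level in both libraries. Monocyte-like cells held 249 and 242 CPM and dendritic-like cells 180 and 147 CPM, so this position depends on the class taken as background. The order of the 4 classes also held cell by cell. The median collagen share was 8.80% and 9.44% of the UMIs of a fibroblast-like cell, 0.907% and 0.980% of an endothelial-like cell, 0.246% and 0.209% of a tumor-like cell and 0.0129% and 0% of a macrophage-like cell. The median cell held UMIs of 15 and 15, 5 and 6, 8 and 7, and 1 and 0 different chains in these 4 classes, at median depths of 3585 and 4286, 3619 and 3895, 6393.5 and 6023, and 5061 and 4361.5 UMIs.

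**Figure D1:**
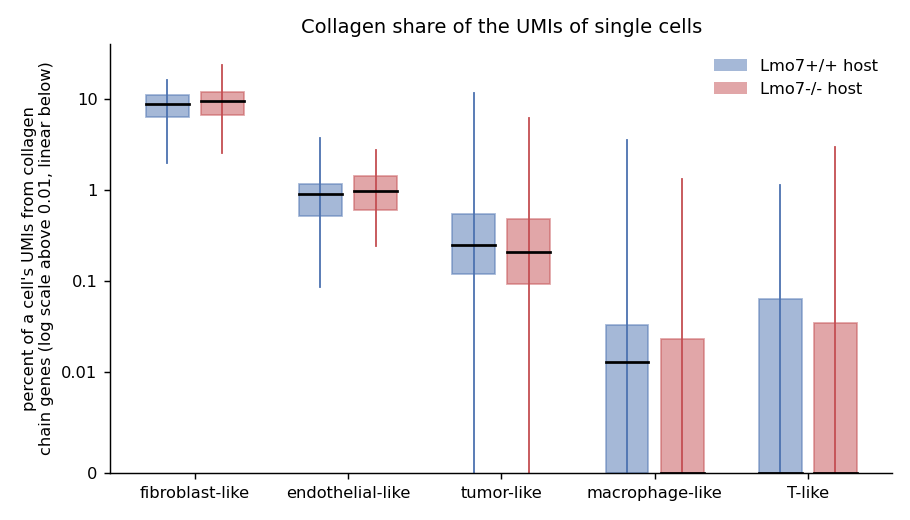
Share of a cell's UMIs that came from the 44 collagen chain genes (percent, log scale above 0.01 and linear below), by cell class and host genotype; boxes span the lower to the upper quartile, black lines mark medians and vertical lines run from the lowest to the highest cell. The fibroblast-like medians of 8.80% and 9.44% stand above the endothelial-like medians of 0.907% and 0.980% and the tumor-like medians of 0.246% and 0.209%, while T-like cells have medians of 0%.

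Although fibroblast-like cells were the richest per cell, most collagen UMIs of the suspension came from tumor-like cells. Fibroblast-like cells were 0.635% and 0.632% of the kept cells and gave 12.3% and 16.5% of all collagen UMIs, whereas tumor-like cells were 47.0% and 40.7% of the cells and gave 75.4% and 70.7%. Endothelial-like cells gave 1.01% and 1.56%, macrophage-like cells 1.32% and 1.34%, and cells left unnamed 9.16% and 8.93%. Since the suspension was dissociated and sorted for live cells, these shares describe the libraries and not the intact tumor.

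The kinds of collagen also differed between the classes. Fibrillar chains made up 83.6% and 88.2% of the collagen UMIs of fibroblast-like cells, followed by the beaded filament chains with 8.70% and 5.65%. In endothelial-like cells the basement membrane chains held 73.5% and 62.1% and the multiplexins 19.1% and 16.8%. In tumor-like cells the beaded filament chains held 45.6% and 41.2% and the fibrillar chains 36.1% and 42.5%. Tumor-like cells thus carried type VI as a much larger part of their collagen than fibroblast-like cells did, in both libraries.

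Of the 44 genes, 43 had a UMI in a kept cell and 28 reached 100 counts in at least 1 of the 4 classes; Col19a1 was at 0 everywhere. Those 28 comprised 9 of the 11 fibrillar genes, 3 of the 6 basement membrane genes, 4 of the 6 beaded filament genes, 3 of the 4 network and anchoring genes, 5 of the 9 fibril-associated genes, both multiplexins, 2 of the 4 transmembrane genes and 0 of the 2 other genes. Among these 4 classes, the highest level was found in fibroblast-like cells for 18 of the 28 and in endothelial-like cells for 5. It was found in tumor-like cells for 4 and in macrophage-like cells for 1. The highest class was the same in both libraries for 26 of the 28. Col15a1 was highest in fibroblast-like cells of the Lmo7+/+ library and endothelial-like cells of the Lmo7-/- library, and Col6a4, at 2 counts in endothelial-like and 263 counts in tumor-like cells, had levels of 2.64 and 2.54 CPM that cannot be told apart.

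**Figure D2:**
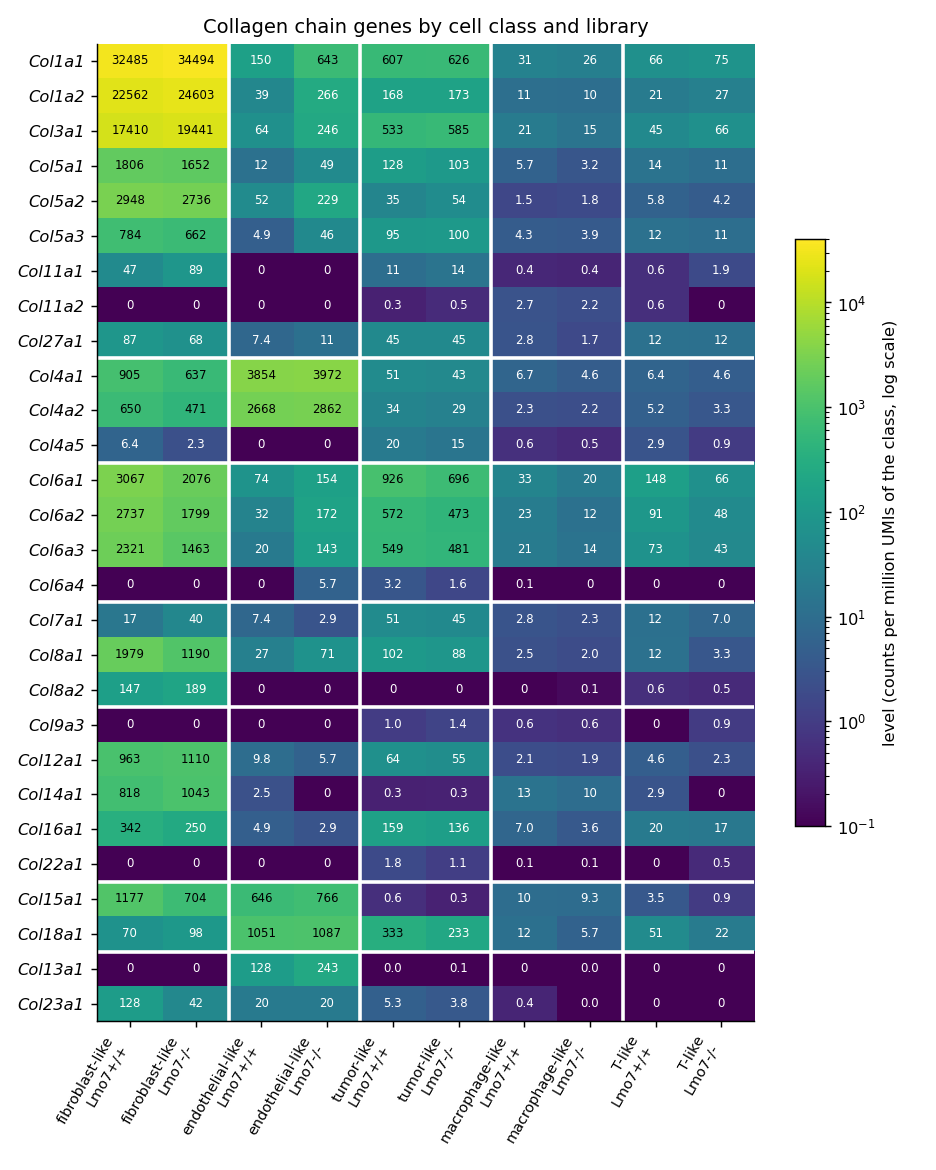
Levels (CPM, color on a log scale, values printed in the cells) of the 28 collagen chain genes with at least 100 counts in a class, by cell class and host genotype; white lines separate the structural groups and the classes. Fibrillar genes stand out in the fibroblast-like columns (Col1a1 at 32485 and 34494 CPM), Col4a1, Col4a2, Col18a1 and Col13a1 in the endothelial-like columns, and T-like cells show the background.

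The fibrillar chains made up most of the collagen UMIs of fibroblast-like cells and were close to level between the libraries. Col1a1 and Col1a2, the chains of type I collagen, stood at 32485 and 34494 CPM and at 22562 and 24603 CPM. Col3a1, the chain of type III, stood at 17410 and 19441 CPM. Over both libraries, Col1a1 was 54.4-fold and Col3a1 33.1-fold more abundant than in tumor-like cells. Every fibroblast-like cell that could be thinned to 1500 UMIs held both (67 of 67 and 60 of 60 cells), and 19 and 15 shallower cells were left out.

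Type V chains, which sit inside type I fibrils and limit their width, were also highest in fibroblast-like cells. Col5a2 stood at 2948 and 2736 CPM, Col5a1 at 1806 and 1652 CPM and Col5a3 at 784 and 662 CPM. Col11a1, known from cartilage and from cancer-associated fibroblasts, was low with 22 and 38 counts (46.8 and 88.6 CPM). Col11a2, the second chain of type XI, was at 0 in fibroblast-like cells.

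Type VI chains build the beaded filaments that link fibrils to cells. Col6a1 stood at 3067 and 2076 CPM, Col6a2 at 2737 and 1799 CPM and Col6a3 at 2321 and 1463 CPM, each lower in the Lmo7-/- library with ratios of -0.56 (-0.68 to -0.44), -0.61 (-0.74 to -0.48) and -0.67 (-0.81 to -0.52). The intervals of all 3 left out 0 and none reached the 2-fold limit. The same pattern, lower but under 2-fold, was seen for Col8a1, a short-chain collagen of hexagonal networks, at 1979 and 1190 CPM (-0.73, -0.89 to -0.58). Col15a1, a multiplexin of basement membrane zones, stood at 1177 and 704 CPM (-0.74, -0.95 to -0.54), and Col4a1 at 905 and 637 CPM (-0.51, -0.73 to -0.28).

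Some fibril-associated chains were higher in the Lmo7-/- library over the whole class. Col14a1, which binds fibrils through decorin, stood at 818 and 1043 CPM (0.35, 0.15 to 0.55) and Col12a1 at 963 and 1110 CPM (0.21, 0.02 to 0.39). Col16a1, of the same group, was lower with 342 and 250 CPM (-0.46, -0.82 to -0.09).

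Of the 44 genes, 22 had at least 20 counts in fibroblast-like cells, and 1 of these was at least 2-fold higher and 1 at least 2-fold lower, against backgrounds of 3.55% and 4.88% of 5494 genes. Col23a1, a transmembrane collagen, had 60 and 18 counts (128 and 42.0 CPM, ratio -1.60, -2.45 to -0.82). Col7a1, the chain of anchoring fibrils, had 8 and 17 counts, and the interval of its ratio of 1.22 held 0 (-0.07 to 2.64). The median ratio of the 22 genes was -0.19 against -0.07 for all genes tested, and 6 had ratios above and 10 ratios below 0 with intervals that left out 0. Such intervals were not counted over all genes, so these numbers have no background share. The summed ratio was 0.02 (0.0023 to 0.0413), with 0.10 for fibrillar, -0.49 for basement membrane and -0.60 for beaded filament chains.

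The fibroblast-like cells fell into 3 clusters that differed in their collagens. A cluster led by Serping1, Mfap5, Sod3, Lox and Lrrc15 (61 cells) had the highest level of Col15a1 with 1877 CPM, of Col23a1 with 200 CPM and of Col6a3 with 3372 CPM. A cluster led by Saa3, Pi16, Ptx3 and Sfrp2 (60 cells) had the highest level of Col3a1 with 24924 CPM and of Col14a1 with 1480 CPM. The remaining cluster, led by Eln, C1qtnf3 and Thbs4 (40 cells), had the highest level of Col8a1 with 3464 CPM, Col8a2 with 601 CPM, Col11a1 with 222 CPM and Col12a1 with 1776 CPM. Both chains of type VIII collagen thus had their highest level in the same 40 cells.

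The Lrrc15 cluster made up 50% and 24% of the fibroblast-like cells of the Lmo7+/+ and Lmo7-/- libraries, the Pi16 cluster 29.1% and 46.7% and the Thbs4 cluster 20.9% and 29.3%. Within the clusters, the summed collagen ratio was 0.05 (0.02 to 0.08), -0.02 (-0.05 to 0.01) and 0.11 (0.08 to 0.15). The type VI chains kept their lower level in the first and second cluster, with beaded filament sums of -0.41 (-0.52 to -0.30) and -0.67 (-0.82 to -0.53), and not in the Thbs4 cluster with 0.17 (-0.01 to 0.34). Col8a1 was lower in all 3 with ratios of -0.67, -1.91 and -0.38. Col4a1 stood at -0.07 (-0.37 to 0.22), -0.36 (-0.75 to 0.03) and -1.64 (-2.83 to -0.57), the last on 31 and 10 counts, and the basement membrane sums at -0.04, -0.24 and -2.08. For Col14a1, highest in the Pi16 cluster, the ratios were 0.07 (-0.73 to 0.84), -0.17 (-0.43 to 0.09) and 0.17 (-0.19 to 0.52), so that the interval held 0 in each cluster. Col15a1 had a ratio of -0.53 (-0.79 to -0.27) in the Lrrc15 cluster beside 0.06 (-0.40 to 0.53) and 0.38 (-0.40 to 1.18) in the Pi16 and Thbs4 clusters, and the differences between clusters were not tested. The mural markers summed to 414 and 224 CPM in the fibroblast-like class, and their part in the lower levels of the basement membrane chains was not tested.

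**Figure D3:**
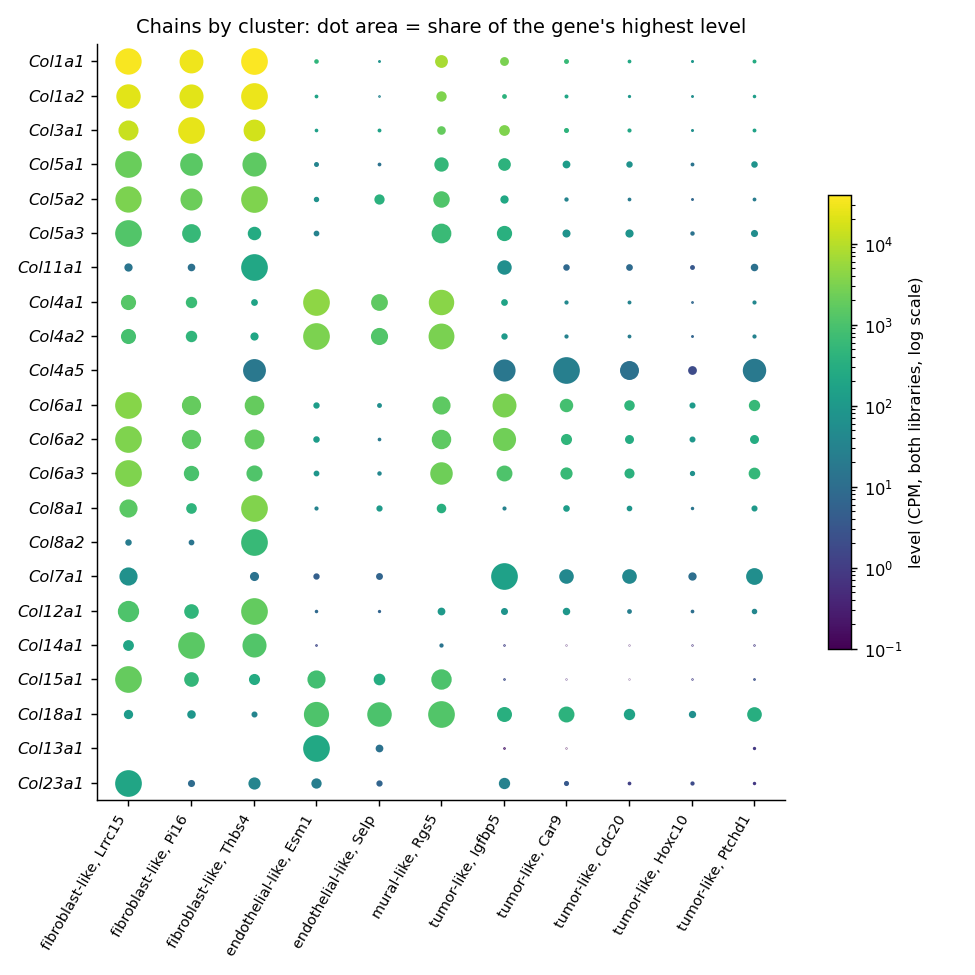
Levels of 22 collagen chain genes in the fibroblast-like, endothelial-like, mural-like and tumor-like clusters, each named by a leading gene; dot area is the share of the gene's highest level among these clusters and color is the level (CPM of both libraries, log scale). Col8a1 and Col8a2 peak in the Thbs4 cluster (3464 and 601 CPM), Col13a1 in the Esm1 cluster (225 CPM), and Col7a1 in the Igfbp5 cluster (152 CPM).

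In endothelial-like cells, Col4a1, Col4a2 and the multiplexins were the most abundant chains, and their ratios over the whole class had intervals that held 0. Col4a1 stood at 3854 and 3972 CPM (ratio 0.04, -0.06 to 0.15) and Col4a2 at 2668 and 2862 CPM (0.10, -0.02 to 0.23). Over both libraries these levels were 5.03-fold and 4.88-fold those of fibroblast-like cells and 82.1-fold and 87.2-fold those of tumor-like cells. Col18a1, whose C-terminal fragment is endostatin, stood at 1051 and 1087 CPM (0.05, -0.15 to 0.25) and Col15a1 at 646 and 766 CPM (0.25, -0.0033 to 0.50). The 22 mural-like cells, which are not among the 4 classes compared, held similar or higher levels over both libraries. Col4a1, Col4a2, Col18a1 and Col15a1 stood at 4050, 2957, 1224 and 1049 CPM there. In endothelial-like cells these levels were 3908, 2758, 1067 and 701 CPM.

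Col4a1 and Col4a2 form the heterotrimer of most basement membranes and lie head to head on chromosome 8. In the GRCm38 annotation, Col4a1 (ENSMUSG00000031502) covers chr8:11198423-11312826 on the minus strand and Col4a2 (ENSMUSG00000031503) chr8:11312805-11449287 on the plus strand, so that the first bases of the genes overlap by 22 bases. The promoter windows of both genes in RefSeq (GRCm38.p6), which run from 250 bases before to 50 bases after each start, share 78 bases. They are shown because the levels of the pair kept a near constant proportion across fibroblast-like, endothelial-like and tumor-like cells. A link between the windows and that proportion was not tested. The windows of Col4a5 and Col4a6, a pair of type IV genes on chromosome X whose starts lie 1309 bases apart, are shown beside them. Each is written 5′ to 3′ on the strand of its gene, with matches to CCAAT and GGGCGG on either strand in capitals.
Col4a1, chr8:11312777-11313076, minus strand: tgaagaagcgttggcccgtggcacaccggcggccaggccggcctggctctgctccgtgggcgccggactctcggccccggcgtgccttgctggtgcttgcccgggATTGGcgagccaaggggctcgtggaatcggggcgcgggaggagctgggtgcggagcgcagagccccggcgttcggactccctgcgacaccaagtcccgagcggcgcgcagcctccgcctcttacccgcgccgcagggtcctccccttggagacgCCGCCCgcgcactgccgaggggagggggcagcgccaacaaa
Col4a2, chr8:11312555-11312854, plus strand: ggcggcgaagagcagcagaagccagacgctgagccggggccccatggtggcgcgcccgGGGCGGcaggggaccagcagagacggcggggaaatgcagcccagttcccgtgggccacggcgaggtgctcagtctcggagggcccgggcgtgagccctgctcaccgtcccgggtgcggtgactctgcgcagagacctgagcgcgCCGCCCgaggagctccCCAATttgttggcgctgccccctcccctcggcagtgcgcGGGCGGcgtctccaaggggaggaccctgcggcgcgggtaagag
Col4a5, chrX:141475169-141475468, plus strand: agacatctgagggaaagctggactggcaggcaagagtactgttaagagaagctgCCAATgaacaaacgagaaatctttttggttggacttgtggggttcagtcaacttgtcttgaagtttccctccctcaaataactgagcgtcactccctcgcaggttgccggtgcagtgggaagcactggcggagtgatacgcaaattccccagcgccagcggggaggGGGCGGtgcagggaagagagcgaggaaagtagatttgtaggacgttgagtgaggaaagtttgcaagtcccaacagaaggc
Col4a6, chrX:141474027-141474326, minus strand: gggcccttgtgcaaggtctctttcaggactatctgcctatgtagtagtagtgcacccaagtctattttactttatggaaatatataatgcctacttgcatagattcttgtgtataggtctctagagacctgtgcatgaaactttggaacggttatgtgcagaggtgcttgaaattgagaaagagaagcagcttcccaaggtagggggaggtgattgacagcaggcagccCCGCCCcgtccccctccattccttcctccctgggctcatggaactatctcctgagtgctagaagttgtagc

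The windows of Col4a1 and Col4a2 had a GC content of 74% and 73.7%, those of Col4a5 and Col4a6 52.7% and 48.3%. Col4a1 held 1 match to CCAAT and 1 to GGGCGG, Col4a2 1 and 3, Col4a5 1 and 1, and Col4a6 0 and 1, with no overlap between the motifs and no match to TATAAA. Of all 32851 windows of that length in the table, 37.4% held CCAAT and 35.7% GGGCGG, and of the 35 collagen chain genes with a window 13 and 22 did. These are matches of letters in a window and not measured binding sites.

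The proportion of Col4a1 to Col4a2 was close to constant in fibroblast-like, endothelial-like and tumor-like cells. Col4a1 held 58.2% and 57.5% of the counts of the pair in fibroblast-like cells, 59.1% and 58.1% in endothelial-like cells and 60.1% and 60.1% in tumor-like cells, although the level of the pair spanned more than an order of magnitude between these classes. In macrophage-like cells the share was 74.4% (67.6% to 80.3%) and 67.1% (58.9% to 74.7%). In the 16 and 6 mural-like cells it was 54.8% (49.1% to 60.5%) and 63.2% (55.5% to 70.4%). The X-linked pair was uneven, with 2021 counts of Col4a5 and 75 of Col4a6 over all kept cells. The third head-to-head pair, Col4a3 and Col4a4 on chromosome 1, was at the limit of detection with 2 and 6 counts.

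Other pairs that share a trimer did not keep their proportion. Col1a1 held 59.0% and 58.4% of the counts of Col1a1 and Col1a2 in fibroblast-like cells and 78.3% and 78.3% in tumor-like cells. Col5a1 held 38.0% and 37.6% of the counts of Col5a1 and Col5a2 in fibroblast-like cells, 78.4% and 65.6% in tumor-like cells and 19.2% and 17.5% in endothelial-like cells. For Col6a1 and Col6a2 the shares were 52.8% and 53.6% in fibroblast-like and 61.8% and 59.6% in tumor-like cells. The exact binomial intervals of the fibroblast-like and tumor-like shares did not overlap for these 3 pairs in either library.

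Col13a1, a transmembrane collagen of cell adhesion sites, was found almost wholly in endothelial-like cells, which held 137 of its 143 counts in all kept cells. Its level was 128 and 243 CPM (ratio 0.93, 0.41 to 1.46), spread over 23 and 30 cells, against 5 counts in tumor-like, 1 in macrophage-like and 0 in fibroblast-like cells. Without the endothelial-like cells that held 3 or more UMIs of mural markers, 60 counts remained. The ratio there was 0.73 with an interval that held 0 (-0.07 to 1.52). Thinned to 1500 UMIs, 9 of 68 and 14 of 53 endothelial-like cells held it, beside 0 of 67 and 0 of 60 fibroblast-like cells, which allows shares of up to 4.48% and 5% there. The endothelial-like cells fell into a cluster led by Igfbp3, Plvap, Kdr and Esm1 (104 cells) and one led by Selp, Lrg1 and Ackr1 (35 cells), and Col13a1 stood at 225 CPM in the first and 12.7 CPM in the second. Col4a1 and Col15a1 were higher in the Esm1 cluster, too, with 4504 and 808 CPM against 1635 and 293 CPM, while Col18a1 was near level with 1080 and 1018 CPM.

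In contrast to the type IV chains, fibrillar and type VI chains were higher in endothelial-like cells of the Lmo7-/- library. Of the 14 collagen chain genes with at least 20 counts, 9 were at least 2-fold higher and 0 at least 2-fold lower, against backgrounds of 3.57% and 4.51% of 5521 genes, and the median ratio was 1.68 against -0.02 for all genes tested. Col1a1 stood at 150 and 643 CPM (2.103, 1.69 to 2.54), Col1a2 at 39.3 and 266 CPM (2.76, 1.98 to 3.62) and Col6a3 at 19.6 and 143 CPM (2.86, 1.78 to 4.15). These levels were low beside those of fibroblast-like cells, where Col1a1 was 88.5-fold higher over both libraries. The other 6 were Col3a1 (1.95), Col5a1 (1.99), Col5a2 (2.15), Col6a1 (1.07), Col6a2 (2.43) and Col8a1 (1.40), the last with 11 and 25 counts. Col1a2, Col6a2, Col8a1, Col6a3 and Col5a1 had 16, 13, 11, 8 and 5 counts in the Lmo7+/+ library. They reached 20 counts only through the Lmo7-/- library, where they were higher, so the number of genes called depends in part on that limit.

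Markers of other cells moved in the same direction in this class. The 10 mural markers, led by Rgs5, Abcc9 and Kcnj8, summed to 238 and 1335 CPM in endothelial-like cells with none at 0, and the 15 fibroblast markers to 341 and 1024 CPM with Lum, Clec3b and Tcf21 at 0. Cells with 3 or more UMIs of the mural markers were 13 of 78 and 23 of 61, and they held 85.2% and 96% of the Col1a1 counts and 87.5% and 94.6% of the Col1a2 counts of the class. This limit is an absolute count, which cells with more UMIs reach more readily. Of Col4a1, which had 1570 and 1389 counts in the class, 1571 counts in all lay outside these cells. Without the cells that held mural markers, a comparison added after the data had been seen, the number of genes at least 2-fold higher was 3 in place of 9. The summed ratio was 0.02 in place of 0.31. The 3 were Col5a2 with 2.84 (1.97 to 3.78), Col3a1 with 1.91 (0.85 to 3.032) and Col8a1 with 1.96 (0.67 to 3.33), whereas Col6a1 stood at -0.63 (-2.41 to 0.85) on 23 counts. The other 5 had under 20 counts there, so that no call could be made, among them Col1a1 with 1.22 (-0.29 to 2.73) on 18 counts and Col1a2 with 2.54 (-0.07 to 5.93) on 7 counts. In the same cells Col4a1 stood at -0.24 (-0.41 to -0.08) and Col18a1 at 0.37 (0.09 to 0.64).

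Col5a2 stood at 382 CPM in the Selp cluster and at 68.3 CPM in the Esm1 cluster, and Col3a1 at 172 and 142 CPM. Their ratios within the Selp cluster were 1.85 (1.00 to 2.78) and 1.91 (0.61 to 3.39), with mural markers at 269 and 0 CPM and fibroblast markers at 1232 and 4682 CPM. At 1500 UMIs, 6 of 68 and 22 of 53 endothelial-like cells held a Col5a2 UMI. The part of the fibroblast markers in these values was not tested.

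Tumor-like cells held 31 of the 44 genes at 20 counts or more, at levels mostly below those of fibroblast-like cells. Col6a1 stood at 926 and 696 CPM (ratio -0.41, -0.43 to -0.39), Col6a2 at 572 and 473 CPM (-0.28, -0.30 to -0.25) and Col6a3 at 549 and 481 CPM (-0.19, -0.22 to -0.17). Col1a1 at 607 and 626 CPM and Col3a1 at 533 and 585 CPM had ratios of 0.04 (0.02 to 0.07) and 0.14 (0.11 to 0.16) over the class, and of -0.30 (-0.34 to -0.27) and -0.80 (-0.84 to -0.75) in its largest cluster, led by Car9. Thinned to 1500 UMIs, 51.3% and 43.8% of tumor-like cells held a Col6a1 UMI and 25.8% and 25.7% a Col1a1 UMI, against 10.8% and 5.60% and 6.57% and 7.28% of T-like cells, so both shares were above those of T-like cells.

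A few genes had their highest level in tumor-like cells. These were Col4a5, with 19.8 and 14.8 CPM, Col7a1 with 50.8 and 44.9 CPM, Col22a1 with 1.83 and 1.11 CPM and Col9a3 with 0.997 and 1.38 CPM. Col18a1 was the multiplexin of this class at 333 and 233 CPM (-0.51, -0.55 to -0.48), and the other multiplexin, Col15a1, stood at 0.581 and 0.345 CPM. Likewise Col8a1 was read 6144 and 3822 times while Col8a2 had 0 counts. Of the fibril-associated chains, Col16a1 stood at 159 and 136 CPM, Col12a1 at 64.3 and 55.4 CPM, and Col14a1 at 0.332 and 0.345 CPM.

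Between the libraries, 31 genes had at least 20 counts, of which 1 was at least 2-fold higher and 2 at least 2-fold lower, against backgrounds of 1.56% and 1.58% of 14191 genes. Col4a6 had 17 and 52 counts (ratio 2.08, 1.27 to 2.97), the latter in 48 different cells. Col6a4 had 194 and 69 counts (-1.02, -1.44 to -0.62) and Col25a1, a collagen with a known role in motor nerves, 22 and 6 counts (-1.40, -3.00 to -0.06). Under 2-fold, Col5a2 was higher with 35.2 and 54.1 CPM (0.62, 0.53 to 0.70). The median ratio of the 31 genes was -0.21 against -0.04 for all genes tested, with 7 above and 16 below 0 by their intervals. No share over all genes was computed for these intervals, which are narrow where counts are high.

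The 5 clusters of the tumor-like class differed in their collagen level. The highest was found in a cluster led by Enpp2, Igfbp5, Serpine2 and Ptn (942 cells), which held 29.5% of the collagen UMIs of the class and made up 6.40% and 11.1% of its cells, with a sum of 18879 and 13151 CPM. It had Col3a1 at 3226 CPM, Col6a1 at 3000 CPM, Col1a1 at 2942 CPM and Col6a2 at 2429 CPM, and its chromosome profile had a slope of 1.01 on the tumor profile, between the 0.946 and 1.06 of the other tumor-like clusters. A slope of at least 0.7 was required for the tumor-like name. The Igfbp5 cluster was also among those that set the tumor profile, so its slope is no separate check of the name. The cluster led by Car9 and Krt14 (4612 cells), with a sum of 4308 CPM, held 47.7% of the collagen UMIs of the class. The cluster led by cell cycle genes such as Cdc20 (3324 cells) had 2369 CPM and 21.3% of these UMIs, and the clusters led by Ptchd1 (449 cells) and Hoxc10 (1867 cells), with medians of 1565 and 2039 UMIs per cell, had 2915 and 686 CPM.

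Within each of the 5 clusters the summed ratio was negative and larger in size than the -0.17 (-0.18 to -0.16) of the class, from -0.21 to -0.52. In the 241 and 228 tumor-like cells without markers of another class, the ratio was 0.28 (0.12 to 0.44) at a level of 1353 CPM in place of 4292 CPM. The Igfbp5 cluster, the richest of the 5 in collagen, made up a larger share of the Lmo7-/- cells. In that cluster 17 of the 22 genes with at least 20 counts had ratios below 0 by their intervals and 3 above, with the lowest values for Col8a1 (-1.74, -2.14 to -1.35), Col1a2 (-1.61, -1.71 to -1.50), Col4a2 (-1.61, -1.81 to -1.40) and Col4a1 (-1.54, -1.70 to -1.39). Col1a2 at class level, by contrast, had a ratio of 0.04 (-0.0018 to 0.0846). For the cluster, the share of all genes with intervals on either side of 0 was not computed. The fibroblast markers summed to 2015 and 1556 CPM and the mural markers to 208 and 123 CPM in this cluster, and their part in these ratios was not tested.

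In macrophage-like cells, collagen counts were few and mostly at or below the background of T-like cells. Of the 22 genes with at least 20 counts, 12 were below the T-like level in both libraries with intervals apart, 2 were above it and 8 were neither. The same comparison was not made over all genes. T-like cells were also shallower, with medians of 2157.5 and 2213 UMIs against 5061 and 4361.5 in macrophage-like cells. Counted per cell, collagen UMIs were 1.21 and 0.750 in macrophage-like and 1.83 and 1.27 in T-like cells. Col1a1 stood at 30.9 and 25.7 CPM in macrophage-like and 65.8 and 75.3 CPM in T-like cells, and Col6a1 at 33.3 and 19.8 against 148 and 65.5 CPM. In dendritic-like cells Col1a1 stood at 24.7 and 25.1 CPM and Col6a1 at 28.4 and 25.1 CPM, near the macrophage-like levels. In T-like cells of the Lmo7-/- library, 1 cell held 57 of the 162 Col1a1 counts. Thinned to 1500 UMIs, 25.1% and 18.8% of macrophage-like cells held a UMI of any collagen chain gene, against 35.0% and 23.3% of T-like cells and, without thinning, 56.5% and 40.8% against 46.5% and 32.8%. The source of these UMIs was not tested.

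The 2 genes above the background in both libraries were Col14a1 and Col15a1. Col14a1 stood at 13.4 and 10.3 CPM, in 225 and 187 cells, against 2.89 and 0 CPM in T-like cells (5 and 0 counts). For Col15a1 the levels were 10.2 and 9.34 CPM, in 205 and 182 cells, against 3.47 and 0.929 CPM. Counted per 100 UMIs of Col1a1, Col14a1 stood at 43.2 and 39.9 in macrophage-like cells. It stood at 2.52 and 3.02 in fibroblast-like and at 0.0547 and 0.0552 in tumor-like cells. Col15a1 stood at 33.2 and 36.3 in macrophage-like cells, between mural-like cells (21.8 and 8.27) and endothelial-like cells (431 and 119). In fibroblast-like and tumor-like cells Col15a1 stood at 3.62 and 2.04 and at 0.0958 and 0.0552. The source of these counts was not tested. Neither gene was concentrated in a few cells, since the 5 cells with most counts held 6.25% and 6.36% of the Col14a1 and 4.52% and 8% of the Col15a1 counts. The levels remained 78.3-fold and 97.2-fold below those of fibroblast-like cells.

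Col11a2, a fibrillar chain that forms type XI trimers with Col11a1, was highest in macrophage-like cells at 2.69 and 2.19 CPM (58 and 47 counts), spread over 58 and 46 cells. It had 0 counts in fibroblast-like and endothelial-like cells and stood at 0.332 and 0.483 CPM in tumor-like cells. T-like cells had 1 and 0 counts. The intervals of the macrophage-like and T-like levels overlapped within each library and were apart over both, with 2.44 CPM (2.00 to 2.96) and 0.257 CPM (0.0065 to 1.43), and dendritic-like cells stood at 1.45 and 4.36 CPM.

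Between the libraries, 0 of the 22 genes were at least 2-fold higher and 1 was at least 2-fold lower in macrophage-like cells, against backgrounds of 1.27% and 1.47% of 12300 genes. Col18a1 stood at 11.7 and 5.74 CPM (ratio -1.03, -1.35 to -0.71), below the T-like 51.4 and 21.8 CPM in both. The median ratio was -0.33 against -0.10 for all genes tested, and 11 genes were below and 0 above 0 by their intervals. The share of all genes with such intervals was not computed. The summed ratio of -0.51 (-0.58 to -0.45) lay beside that of T-like cells (-0.51, -0.64 to -0.38). By group, the beaded filament sums were -0.75 and -0.99 in macrophage-like and T-like cells. The fibrillar sums had opposite signs, with -0.34 (-0.44 to -0.24) and 0.23 (0.02 to 0.45). In monocyte-like and dendritic-like cells the summed ratio was -0.04 (-0.24 to 0.15) and -0.29 (-0.61 to 0.01). A cluster of 413 macrophage-like cells with a median of 1354 UMIs held 1255 and 774 CPM of collagen, against 191 and 144 CPM in the main cluster of 7011 cells.

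**Figure D4:**
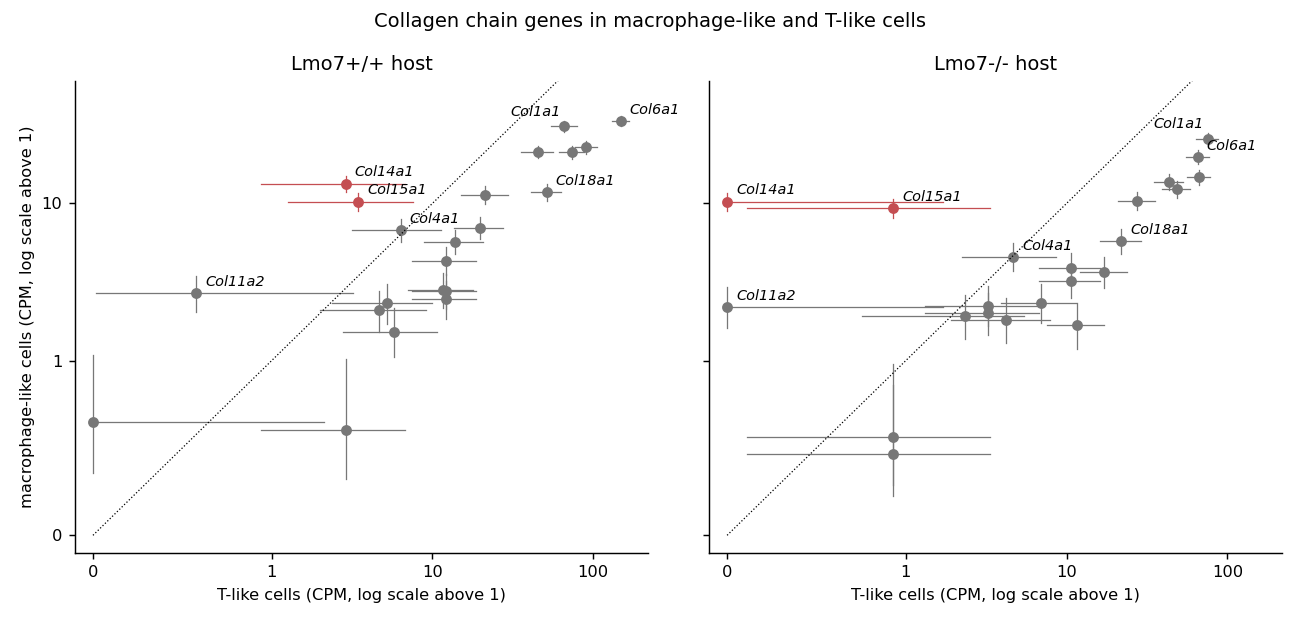
Levels (CPM, log scale above 1 and linear below) in macrophage-like against T-like cells for the 22 collagen chain genes with at least 20 counts in macrophage-like cells, with 95% counting intervals; the dotted line marks equal levels. Col14a1 and Col15a1 (red) lie above the line in both libraries, at 13.4 and 10.3 CPM and 10.2 and 9.34 CPM in macrophage-like cells, and 12 genes lie below it.

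Lists of further genes cover the steps from chain folding to degradation. Of 19 genes for chain modification and folding, 18 had at least 100 counts in a class and 16 of these were highest in fibroblast-like cells. Serpinh1, the collagen chaperone of the endoplasmic reticulum, stood at 1819 and 1945 CPM there, at 943 and 832 CPM in endothelial-like, 612 and 554 CPM in tumor-like and 19.5 and 14.5 CPM in macrophage-like cells. P4hb, the beta subunit of prolyl hydroxylase, was more even with 1120 and 884, 518 and 535, 993 and 905, and 579 and 509 CPM. Ppib, a prolyl isomerase of the folding complex, and Colgalt1, a galactosyltransferase for hydroxylysine, stood at 332 and 280 CPM and at 308 and 198 CPM in fibroblast-like cells. None of the 17 measured in fibroblast-like and the 18 measured in tumor-like cells was at least 2-fold apart, and P3h4 was lower in endothelial-like cells (24 counts, -1.06, -2.57 to 0.28) and macrophage-like cells (-1.02, -1.83 to -0.26).

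Propeptide removal and crosslinking genes were highest in fibroblast-like cells in 8 of 11 cases. Pcolce, an enhancer of propeptide cleavage, stood at 706 and 763 CPM, Bmp1, the C-propeptidase, at 593 and 579 CPM and Loxl3, a lysyl oxidase, at 351 and 399 CPM. Tgm2, a crosslinking transglutaminase, was highest in macrophage-like cells with 505 and 964 CPM (ratio 0.93, 0.90 to 0.97). In endothelial-like cells Pcolce (1.11, 0.29 to 1.97) and Loxl2 (1.17, 0.19 to 2.21) were at least 2-fold higher among the 4 genes measured, against 3.57% of all genes tested, beside the mural and fibroblast markers that were higher there. In tumor-like cells Adamts2, the N-propeptidase, was lower (-1.53, -1.85 to -1.22), 1 of 13. In macrophage-like cells Adamts2 stood at 15 and 7 counts (-1.09, -2.62 to 0.29), 1 of 7.

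All 9 fibril binding genes with 100 counts in a class were highest in fibroblast-like cells, among them Sparc at 23516 and 23796 CPM, Bgn at 7821 and 7402 CPM, Fn1 at 2935 and 3058 CPM and Dcn at 1802 and 2526 CPM, and none was at least 2-fold apart in any of the 4 classes. Dcn, Lum and Fap are also markers that named the fibroblast-like class, and Mrc1 one that named the macrophage-like class. Receptors were spread over the classes, with 2 of 7 highest in each of fibroblast-like, endothelial-like and tumor-like cells. Itgb1, the integrin beta chain of the collagen receptors, was highest in endothelial-like cells (1222 and 1578 CPM), Adgrg1, a receptor for type III collagen, there as well (184 and 137 CPM), Ddr2 in tumor-like cells (165 and 159 CPM) and Lair1, an inhibitory receptor of leukocytes, in macrophage-like cells (295 and 304 CPM). Itga11 was the 1 receptor at least 2-fold lower, in tumor-like cells (51 counts, -1.08, -2.11 to -0.14).

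Degradation and uptake genes divided between makers and macrophages, with 4 of 10 highest in fibroblast-like, 2 in tumor-like and 4 in macrophage-like cells. Mmp13, an interstitial collagenase, stood at 622 and 741 CPM in macrophage-like cells and at 97.8 and 401 CPM in fibroblast-like cells (ratio 2.04, 1.56 to 2.54), the 1 gene of the list at least 2-fold higher there. Mmp9, a gelatinase, and Ctsl, a lysosomal cathepsin, were highest in tumor-like cells with 516 and 489 CPM and 880 and 828 CPM. Ctsb, another cathepsin, was highest in macrophage-like cells with 2943 and 3534 CPM. Mmp2 was at least 2-fold higher in endothelial-like cells (1.02, 0.50 to 1.55), beside the mural markers that were higher there.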

How the data were processed

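Single-cell RNA of 2 subcutaneous MC38 tumor suspensions, 1 library from Lmo7+/+ and 1 from Lmo7-/- hosts, was deposited as UMI counts per gene and cell, with 98582479 and 80648345 UMIs in all. Per the labels, the authors made these counts with Cell Ranger 2.1.1 on mm10, and no normalization was applied to the deposited counts. Cells under 500 genes or 1000 UMIs, or over 15% mitochondrial UMIs, were dropped. Cells were clustered without the collagen chain genes on log-normalized values, with scikit-learn 1.9.0 and igraph 0.11.9. The settings were 2000 variable genes, 30 principal components, 20 neighbours and a Louvain resolution of 0.5. Clusters were named from marker lists, with naming limits set after the data had been seen. Scrublet, run in scanpy 1.11.5, marked 2.82% and 2.37% of the cells as doublets, which were kept. Their removal was tried as an alternative. Tumor-like clusters had a slope of at least 0.7 on the chromosome profile of clusters with little Ptprc and no host class.

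UMI counts were summed over each class and library and divided by all UMIs of the class to give CPM. Exact Poisson intervals (levels), exact conditional binomial intervals (log2 ratios) and exact Clopper-Pearson intervals (shares), all 95%, were computed with scipy 1.17.1 and cover counting error only. A count of 0 was read against a limit of 3 counts. Shares of cells with a UMI were also computed after thinning each cell to 1500 UMIs, with shallower cells left out of these shares. With 1 library per genotype no test between genotypes was possible, and the ratio script was tested on simulated data. Genes were named where they had at least 100 counts in 1 of the 4 classes or at least 20 counts and a 2-fold ratio whose interval left out 0, and in the other lists the 4 with most counts. The members, lists and rules were chosen with earlier results of these data known. Alternatives covered cell filters, clustering, doublets, scaling (edgeR 4.0.16 TMM factors) and the count minimum. Promoter windows came from RefSeq (GRCm38.p6), with 35 of the 44 genes matched, and gene positions from GENCODE (GRCm38). Reads shared between near-identical genes and the strand setting of the counting are not given in the sources used here.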

Additional observations from a re-analysis of the deposited data

Results flagged for a closer look

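For 7 collagen chain genes the ratio between the libraries had opposite signs in 2 cell classes, with intervals that left out 0 in both and a ratio of at least 2-fold in 1 of them. The pair of classes with the largest difference is given for each gene. These differences between classes were not tested, since each genotype had 1 library. Between endothelial-like and macrophage-like cells the log2 ratios differed by 2.37 for Col1a1 (2.103 and -0.26), by 2.49 for Col3a1 (1.95 and -0.54), by 2.81 for Col5a1 (1.99 and -0.82), by 1.82 for Col6a1 (1.07 and -0.76) and by 3.31 for Col6a2 (2.43 and -0.88). Between endothelial-like and fibroblast-like cells they differed by 3.53 for Col6a3 (2.86 and -0.67) and by 2.14 for Col8a1 (1.40 and -0.73). The 2-fold ratio of each was that of the endothelial-like class, in which mural markers summed to 238 and 1335 CPM. Under 2-fold, opposite signs with intervals that left out 0 were also seen for Col12a1 (0.21 in fibroblast-like and -0.21 in tumor-like cells), Col14a1 (0.35 in fibroblast-like and -0.38 in macrophage-like cells) and Col5a3 (-0.24 in fibroblast-like and 0.07 in tumor-like cells). The macrophage-like levels of Col1a1 and of the type VI chains lay below those of T-like cells in both libraries.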

How the results depend on the processing

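No paired analysis was possible because each genotype had 1 library. With 1 library per genotype, counting intervals do not cover the spread between mice, and fibroblast-like and endothelial-like cells numbered 161 and 139 in all. Of 934 ratios of single genes recomputed under 13 alternatives (12 planned), 884 kept their sign and 50 did not. Of 151 that were 2-fold, 2 took another sign and 19 came under 2-fold.

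The summed level was 94161, 9853, 4292 and 186 CPM in fibroblast-like, endothelial-like, tumor-like and macrophage-like cells, with summed ratios of 0.02, 0.31, -0.17 and -0.51 and 1 higher and 1 lower, 9 and 0, 1 and 2, and 0 and 1 genes at 2-fold. A lenient cell filter gave 93029 CPM in fibroblast-like, 4407 CPM and 2 higher in tumor-like, and 181 CPM and 0 lower in macrophage-like cells. A strict filter gave 92594 CPM, a ratio of 0.0764 and 2 higher in fibroblast-like, 4236 CPM in tumor-like, and 157 CPM, -0.43 and 2 lower in macrophage-like cells. A resolution of 1.0 gave 4049 CPM, -0.13 and 1 lower in tumor-like and 216 CPM and 2 lower in macrophage-like cells. With 20 components the fibroblast-like sum was 95470 CPM and its ratio turned to -0.0166, and tumor-like cells had 4334 CPM, -0.18, 2 higher and 1 lower. Clustering with the collagen genes gave 4311 CPM, 2 higher and 1 lower in tumor-like and 178 CPM in macrophage-like cells. Without doublets, tumor-like cells had 4341 CPM and -0.15, and macrophage-like cells 0 lower.

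Cells without markers of another class were few (17 and 12 fibroblast-like, 15 and 11 endothelial-like, 241 and 228 tumor-like, 1699 and 2015 macrophage-like). There the values were 83608 CPM, 0.57, 2 higher and 0 lower in fibroblast-like, 11038 CPM, 0.60 and 1 higher in endothelial-like, and 1353 CPM, a ratio turned to 0.28, 2 higher and 0 lower in tumor-like cells, and 157 CPM and 5 lower in macrophage-like cells. The cause was not tested. The mean over cells gave 91853 CPM, 0.0949 and 2 higher in fibroblast-like, 0.18 and 5 higher in endothelial-like (Col6a1 turned to -0.0518), 4726 CPM, -0.21 and 4 lower in tumor-like, and 254 CPM, -0.60 and 3 lower in macrophage-like cells. Totals without the 10 most abundant genes gave 109112, 10746, 4666 and 208 CPM. TMM gave 0.12 and 2 higher in fibroblast-like, -0.13, 2 higher and 1 lower in tumor-like, and -0.41 and 0 lower in macrophage-like cells. A minimum of 50 counts left 0 higher in fibroblast-like and 1 lower in tumor-like cells. Without endothelial-like cells that held mural markers, chosen after seeing the data, the level was 8316 CPM, the ratio 0.0152 and the number higher 3, and Col6a1 turned to -0.63.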

Other observations

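Mural-like cells, led by Rgs5, Notch3 and Abcc9, numbered 16 and 6 and held 27301 and 34798 CPM of collagen chain transcripts. Col4a1 stood at 3960 and 4199 CPM and Col18a1 at 1095 and 1439 CPM in these cells, beside Col1a1 at 5334 and 10342 CPM (ratio 0.96) and Col6a3 at 2120 and 2683 CPM. With 6 cells in the Lmo7-/- library, these values describe few cells.

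Monocyte-like cells held Col4a1 at 16.2 and 20.5 CPM, beside 6.35 and 4.65 CPM in T-like cells, and Col4a2 at 2.94 and 3.20 CPM. The Col4a1 intervals of these classes overlapped in the Lmo7+/+ library (11.1 to 22.7 and 3.17 to 11.4 CPM). They were apart in the Lmo7-/- library (14.0 to 28.9 and 2.23 to 8.54 CPM). Col4a1 made up 84.6% (69.5% to 94.1%) and 86.5% (71.2% to 95.5%) of the counts of the pair there, against 59.1% and 58.1% in endothelial-like cells, on 33 and 32 Col4a1 counts.

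Unnamed clusters also held collagen. A cluster led by Nid1, Mest and Ccl11 (28 and 13 cells), whose chromosome profile had a slope of 0.762, held 22749 and 7321 CPM. Another, led by Ccn2 and Tagln (15 and 12 cells), held 50945 and 25470 CPM.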
